A study of Mus musculus with 20 samples.

Results

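The 10 Kruppel-like factor genes Klf2, Klf3, Klf4, Klf6, Klf7, Klf9, Klf10, Klf11, Klf13 and Klf16 were followed in RNA-seq of murine bone marrow-derived dendritic cells (BMDCs). They were picked by gene symbol from the 24421 genes of the count table, which lists 17 Kruppel-like factor symbols. All 10 passed the filter on low counts, as did 12465 genes in all. The picking was done with levels and fold changes of these same libraries in view, and which values guided it is not recorded. Counts of members called are therefore given as descriptions beside the share of all genes called, and the p values of single members carry no correction for the choice.

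BMDCs were grown from wild-type C57BL/6 bone marrow with GM-CSF at 40 ng/mL for 8 days, and cells of each of 5 mice (A to E) gave 1 library in each of 4 groups, 20 libraries in all. The DMSO Ova group received solvent, labelled as 5% DMSO, and ovalbumin (Ova). The DMSO IC group received the same solvent and immune complexes (IC) of ovalbumin with IgG antibody, which cross-link Fcγ receptors. The iBET Ova and iBET IC groups received I-BET151 (iBET) at 3.3 μM with Ova or with IC. I-BET151 inhibits the BET proteins, which bind acetylated histones and help to start transcription. Stimulation lasted 4 hours in every group. The methods place iBET before the stimulus and the labels give both together, and the solvent content of the iBET groups is not stated. Such cultures are known to hold macrophage-like cells too. Any gate by which cells were sorted before lysis is not described, and the methods speak of lysis of cells in culture. RNA was the only readout, so protein was not measured. Questions put to these groups were what iBET did to each factor, what IC did to it, and whether the 2 effects combined.

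Kruppel-like factors are zinc finger proteins that bind GC-rich and CACCC-containing DNA through a conserved C-terminal domain and differ in the partners recruited by the rest of the protein. KLF2, KLF4, KLF6 and KLF7 belong to the set that recruits histone acetyltransferases and often activates transcription. KLF3 recruits the corepressor CtBP. KLF9, KLF10, KLF11, KLF13 and KLF16 carry a motif that binds the corepressor SIN3A. In myeloid cells KLF2 is known as a restraint on inflammatory activation, and KLF4 as a factor of monocyte differentiation. Klf10 and Klf11 are known in many cells as early genes of TGF-β signalling.

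Libraries held between 16447491 and 29245150 counts (median 21764663), and levels are given below as CPM, which are counts scaled to a common library total with TMM factors. The 4 libraries from 1 mouse tended to depart from their group means in the same way. Of a list of 7 dendritic cell markers, 6 had a mean of 1 CPM or more in each DMSO group and 5 in each iBET group. Their summed level was 4279 to 6668 CPM in DMSO Ova and 4992 to 7828 in DMSO IC. It was 4562 to 7052 CPM in iBET Ova and 5442 to 8824 in iBET IC. On this list, Itgax and Cd74 had mean levels of at least 1962 and 2661 CPM in each group, whereas Cd209a was at most 0.568 CPM in any library. Flt3, the receptor of a dendritic cell growth factor, had a mean of 3.03 CPM in DMSO Ova and 2.56 CPM in DMSO IC, against 0.242 and 0.349 CPM in the iBET groups. All 5 macrophage markers had a mean of 1 CPM or more in each group, and their summed level was 669 to 852 CPM in DMSO Ova, 729 to 860 in DMSO IC, 566 to 699 in iBET Ova and 638 to 821 in iBET IC. Of the neutrophil list, 5 of 6 genes were in the table and summed to 11.7 to 48.3 CPM, and B and T cell lists summed to under 1 CPM in every library. The part of these differences in the results was not tested. In bulk RNA, fewer cells of a type and less RNA per cell cannot be told apart.

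Klf6, which encodes a broadly expressed activator, was the member with the highest level in each group. Levels of different genes were compared per kilobase of annotated exon. In DMSO Ova, Klf6 had 119.9 ± 17.2 CPM per kb (SD, n = 5), Klf4 48.0 ± 3.63 and Klf13 31.0 ± 2.42. Then came Klf10 with 25.4 ± 4.11 and Klf2 with 19.9 ± 5.01 CPM per kb. Klf9 (12.6 ± 0.982), Klf16 (8.06 ± 1.94), Klf3 (3.28 ± 0.399), Klf11 (2.62 ± 0.188) and Klf7 (1.62 ± 0.419) followed. Libraries overlapped between Klf13 and Klf10, Klf10 and Klf2, Klf2 and Klf9, and Klf3 and Klf11, although within each mouse the first of each of these pairs was the higher in 5 of 5 mice. The libraries of the other neighbours did not overlap.

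The order shifted with treatment. Klf2 stood in the fifth place per kilobase in DMSO Ova and in the second in both iBET groups, where it had 37.8 ± 4.13 CPM per kb with Ova and 26.2 ± 2.08 with IC. Its libraries then overlapped with those of Klf4, which was at 27.5 ± 3.79 and 20.4 ± 3.62 CPM per kb and below Klf2 in 5 of 5 mice under each stimulus. Klf10 dropped from the fourth place in DMSO Ova to the seventh in iBET IC, at 5.57 ± 1.08 CPM per kb, where it overlapped with Klf9 and was the lower in 4 of 5 mice. Klf7 was last in 3 groups, and in DMSO IC Klf11 was last with libraries overlapping those of Klf7, which was the higher in 4 of 5 mice. Summed over the 10 genes, the level was 1193 ± 41.6 CPM in DMSO Ova, 1040.3 ± 6.70 in DMSO IC, 868 ± 38.7 in iBET Ova and 671 ± 22.2 in iBET IC. Klf6 reads made up 44.0 ± 5.25%, 53.4 ± 4.66%, 37.2 ± 3.11% and 46.0 ± 2.71% of the reads on the 10 genes in the same order of groups.

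**Figure D1:**
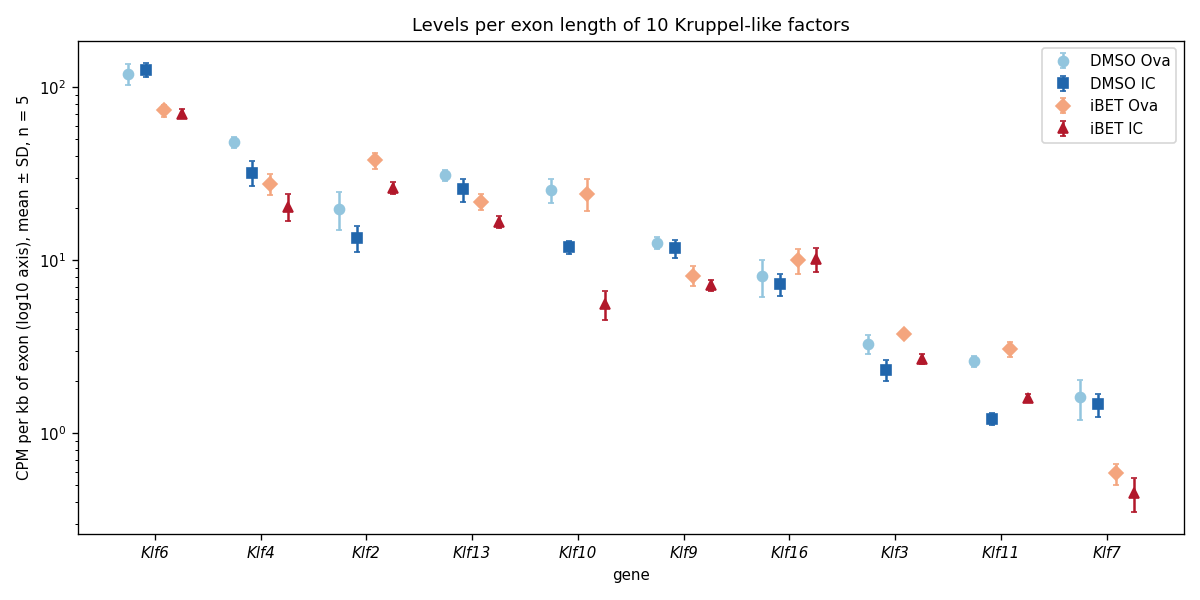
Mean level of each member in CPM per kb of exon on a log10 axis, with bars for the SD over 5 mice and 1 symbol for each group. Klf6 lies above the other members in each group, Klf2 rises above Klf4 in mean only in the iBET groups, and Klf7 is lowest in 3 of the 4 groups.

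The start regions of 8 members were found in RefSeq (GRCm38.p6) and Klf10 and Klf16 had no entry. Shown are the 250 bases upstream of the RefSeq start of Klf2 and Klf4, which fell together with IC and moved in opposite directions with iBET, and of Klf9 and Klf13, which fell together with iBET. Klf4, Klf6 and Klf7 also fell with iBET. Capitals mark GGGCGG (the GC box) and CCACCC (the CACCC box) on either strand, letters that Sp and Kruppel-like factors are known to bind, and neighbouring matches may share a base.
Klf2, chr8:72318812-72319061, + strand: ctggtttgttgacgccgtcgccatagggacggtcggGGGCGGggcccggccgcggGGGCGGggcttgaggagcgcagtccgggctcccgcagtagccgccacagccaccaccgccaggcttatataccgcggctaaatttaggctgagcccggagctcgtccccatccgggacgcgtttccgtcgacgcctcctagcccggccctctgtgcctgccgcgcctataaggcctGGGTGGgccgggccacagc
Klf4, chr4:55532476-55532725, − strand: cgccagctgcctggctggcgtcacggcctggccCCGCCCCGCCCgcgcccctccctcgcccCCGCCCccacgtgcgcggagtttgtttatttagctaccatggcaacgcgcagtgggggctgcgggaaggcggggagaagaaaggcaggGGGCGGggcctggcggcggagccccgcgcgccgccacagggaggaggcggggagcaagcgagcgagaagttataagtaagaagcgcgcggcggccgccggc
Klf9, chr19:23140976-23141225, + strand: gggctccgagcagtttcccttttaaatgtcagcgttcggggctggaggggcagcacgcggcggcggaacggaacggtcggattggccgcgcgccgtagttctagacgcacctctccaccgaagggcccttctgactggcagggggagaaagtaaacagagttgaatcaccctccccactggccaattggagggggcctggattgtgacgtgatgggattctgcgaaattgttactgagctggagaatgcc
Klf13, chr7:63938916-63939165, − strand: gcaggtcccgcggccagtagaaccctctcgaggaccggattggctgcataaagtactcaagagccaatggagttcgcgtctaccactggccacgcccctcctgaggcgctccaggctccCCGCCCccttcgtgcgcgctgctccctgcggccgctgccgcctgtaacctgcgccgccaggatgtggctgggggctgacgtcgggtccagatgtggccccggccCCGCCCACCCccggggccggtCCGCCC

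GGGCGG on either strand was present in 7 of the 8 windows, Klf9 being the one without it, and in 32.7% of all 32851 windows of this length. CCACCC was present in 4 of 8 (Klf2, Klf3, Klf7 and Klf13), against 28.1% of all windows. TATAAA was in none of the 8 (12.4% of all) and CCAAT in 4 (33.8% of all). CACGTG, an E-box, was in the windows of Klf4, Klf6 and Klf11 and in 6.02% of all. TGANTCA, an AP-1 site, was in Klf9 alone (6.75% of all). The letters CTANNNNTAG, which describe a MEF2 site, matched in Klf2 alone among the 8 and in 3.20% of all windows. CpG dinucleotides numbered 13 in Klf7, the lowest of the 8, and 32 in Klf4 and Klf11, the highest, with a median of 6 over all windows. GGGCGG and CACGTG each hold a CpG, and the shares of all windows were not matched for CpG number. These matches describe the letters in the windows and not binding.

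iBET moved the activator group in both directions, with Klf2 higher and Klf4, Klf6 and Klf7 lower, whichever stimulus was given. With Ova, Klf2 was 1.90-fold of its DMSO level, and Klf4, Klf6 and Klf7 were at 0.574, 0.613 and 0.362 of theirs. Among the members that bind SIN3A, Klf9 and Klf13 fell and Klf11 rose under both stimuli. The rise of Klf16 and the fall of Klf10 passed the threshold only with IC. With Ova, Klf16 was also higher in 5 of 5 mice (log2 fold change 0.31), whereas Klf10 had a log2 fold change of -0.065. Klf3 missed the threshold under both.

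By edgeR with Benjamini-Hochberg adjustment over all 12465 genes, 2 of the 10 members were called higher and 5 lower with iBET in Ova, where 27.7% of all genes were called higher and 28.9% lower. With IC, 3 were called higher and 6 lower, against 27.1% and 29.0% of all genes. The median log2 fold change of the members was -0.29 in Ova and -0.64 in IC, and that of all genes -0.0029 and -0.0054. Groups did not overlap for 6 members in Ova and for 7 in IC, against 38.0% and 42.8% of all genes. With the mouse as a replicate block, Klf3 and Klf16 were called higher in Ova and Klf3 in IC, giving 4 higher and 5 lower in Ova (33.5% and 35.2% of all genes) and 4 higher and 6 lower in IC (32.6% and 35.4% of all genes). Both iBET comparisons use different DMSO libraries of the same 5 mice.

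Klf2 (Kruppel-like factor 2, chromosome 8 from 72319033 to 72321656, + strand, GRCm38, protein coding) was at 38.1, 45.9, 31.6, 44.6 and 23.8 CPM in mice A to E with DMSO Ova and at 71.9, 60.1, 69.9, 80.8 and 66.4 CPM with iBET Ova. With DMSO IC it was at 29.3, 26.7, 18.2, 27.3 and 23.1 CPM and with iBET IC at 47.1, 54.0, 46.3, 44.3 and 50.5 CPM. Every iBET library lay above every DMSO library of the same stimulus, and mouse E was the lowest in DMSO Ova while mouse C was the lowest in DMSO IC. The difference passed the test in Ova (log2 fold change 0.92, SE 0.148, adjusted p = 2.52e-05) and in IC (log2 fold change 0.96, SE 0.150, adjusted p = 1.82e-05), with a rise in 5 of 5 mice each time.

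Klf4 (chromosome 4 from 55527143 to 55532466, − strand) was at 155, 148, 129.6, 157 and 142 CPM in mice A to E with DMSO Ova and at 101, 90.1, 74.2, 78.9 and 75.5 CPM with iBET Ova. With DMSO IC it was at 106, 109, 69.9, 101 and 104 CPM and with iBET IC at 73.1, 74.5, 51.3, 52.8 and 58.8 CPM. The Ova groups were separate, and the IC groups overlapped through mouse C of DMSO IC alone, which was the lowest of its group. Klf4 fell in Ova (log2 fold change -0.80, SE 0.126, adjusted p = 2.14e-05) and in IC (log2 fold change -0.65, SE 0.127, adjusted p = 1.99e-04), in 5 of 5 mice each.

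Klf6 (chromosome 13 from 5861482 to 5870394, + strand) fell from 551, 412, 577, 493 and 600.4 CPM in mice A to E with DMSO Ova to 331, 325, 353, 282 and 323 CPM with iBET Ova. With IC the values were 514, 507, 632, 574 and 548 CPM under DMSO and 289, 301, 335, 303 and 317 CPM under iBET. No DMSO library was as low as any iBET library under the same stimulus. The log2 fold changes were -0.71 in Ova (SE 0.0912, adjusted p = 1.83e-06) and -0.85 in IC (SE 0.0914, adjusted p = 1.67e-07).

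Klf7, first described for its wide expression and known for its role in neurons (chromosome 1 from 64029447 to 64122282, − strand), had the largest fall of the 10 with iBET. It was at 10.9, 10.4, 18.0, 11.0 and 15.4 CPM in mice A to E with DMSO Ova and at 4.28, 5.75, 5.08, 4.10 and 4.60 CPM with iBET Ova, and at 12.6, 13.2, 11.9, 8.87 and 13.2 CPM with DMSO IC and 2.70, 3.22, 4.76, 3.48 and 4.17 CPM with iBET IC. The lowest DMSO library of each stimulus was above the highest iBET library, and mice C and E were the high libraries in DMSO Ova. Fitted differences were -1.47 in Ova (SE 0.174, adjusted p = 5.85e-07) and -1.71 in IC (SE 0.177, adjusted p = 9.26e-08) on the log2 scale. Its libraries held 73 to 383 reads, and 3 annotated RNA genes (Gm26649, Gm13748 and Mir6899) overlap it. Whether counting used strand is not given in the sources used here.

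Klf3, the CtBP-binding repressor (chromosome 5 from 64803388 to 64832901, + strand), ranged over 32.4 to 43.6 CPM in DMSO Ova and 40.1 to 43.5 in iBET Ova, and over 20.6 to 29.2 in DMSO IC and 28.9 to 34.0 in iBET IC. The groups overlapped under both stimuli. Its log2 fold change was 0.19 in Ova (95% interval 0.015 to 0.37, adjusted p = 0.0776) and 0.21 in IC (95% interval 0.031 to 0.39, adjusted p = 0.0568). Both passed in edgeR once the mouse entered as replicate block (adjusted p = 0.0114 and 0.00833). The annotated RNAs Gm20033 and C230096K16Rik overlap Klf3.

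Klf9, a factor induced by thyroid and glucocorticoid hormones in many tissues (chromosome 19 from 23141226 to 23168134, + strand), ranged over 57.7 to 68.9 CPM in DMSO Ova and 31.3 to 44.8 in iBET Ova, and over 49.3 to 65.0 in DMSO IC and 31.8 to 38.7 in iBET IC, with no overlap under either stimulus. It fell by edgeR with Ova (log2 fold change -0.63, SE 0.0933, adjusted p = 1.08e-05) and with IC (log2 fold change -0.71, SE 0.0936, adjusted p = 2.50e-06). Klf13, known as a regulator of chemokine expression in T cells (chromosome 7 from 63886351 to 63938915, − strand), ranged over 205 to 252 CPM in DMSO Ova, 143 to 189 in iBET Ova, 161 to 229 in DMSO IC and 113 to 136 in iBET IC, also without overlap between iBET and DMSO. It also fell by edgeR with Ova (log2 fold change -0.51, SE 0.0973, adjusted p = 1.81e-04) and with IC (log2 fold change -0.62, SE 0.0976, adjusted p = 2.02e-05). Gm27252 and E030018B13Rik overlap Klf13 on the other strand, and Mir1192 overlaps Klf9.

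Klf11 (chromosome 12 from 24651274 to 24662789, + strand) was at 11.8, 12.6, 10.6, 10.8 and 11.0 CPM in mice A to E with DMSO Ova and at 13.3, 14.0, 11.1, 14.1 and 14.4 CPM with iBET Ova. Under IC it was at 5.57, 5.13, 5.74, 5.29 and 4.59 CPM with DMSO and 6.66, 6.93, 7.09, 7.44 and 6.78 CPM with iBET. The Ova groups overlapped and the IC groups did not, and iBET was the higher in 5 of 5 mice under each stimulus. Klf11 rose with Ova (log2 fold change 0.24, SE 0.0797, adjusted p = 0.0162) and with IC (log2 fold change 0.41, SE 0.0840, adjusted p = 3.57e-04) by the edgeR fit. Without mouse D or mouse E the Ova call was lost (adjusted p = 0.100 and 0.0752), as it was with library size scaling (0.0538).

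Klf16 (chromosome 10 from 80567124 to 80577321, − strand) overlapped between iBET and DMSO under both stimuli, with 16.4 to 28.9 CPM in DMSO Ova, 20.8 to 31.1 in iBET Ova, 16.5 to 23.1 in DMSO IC and 22.1 to 31.5 in iBET IC, although each of the 5 mice was higher with iBET both times. Mice A and B were the lowest in every group. It rose in IC (log2 fold change 0.48, SE 0.156, adjusted p = 0.0131). The Ova difference was 0.31 (95% interval 0.0014 to 0.61), with an edgeR p of 0.0633 unadjusted and 0.101 adjusted. With the replicate block the adjusted p in Ova was 0.00129.

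**Figure D2:**
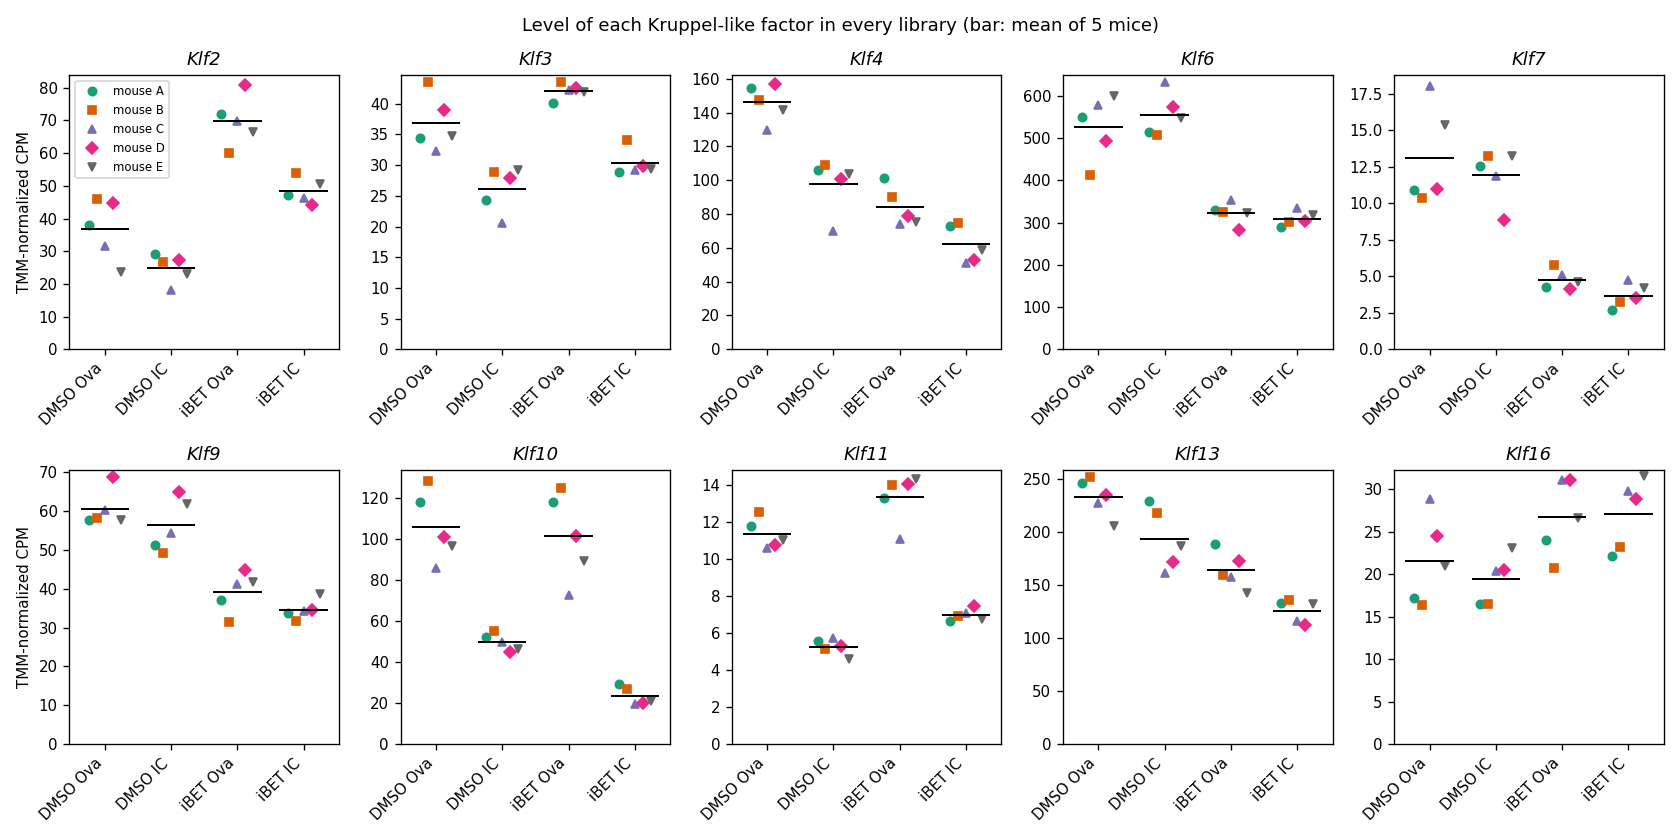
TMM-normalized CPM of each member on a linear axis from 0 in all 20 libraries, with 1 symbol for each mouse and a bar at the mean of 5. Klf2 is highest in iBET Ova, Klf4, Klf6, Klf7, Klf9 and Klf13 are lower in both iBET groups, and Klf10 falls from a mean of 106 CPM in DMSO Ova to 23.3 CPM in iBET IC.

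IC lowered several members and raised none at the threshold. Klf10 and Klf11, the early genes of TGF-β signalling, were at 0.468 and 0.464 of their Ova levels under DMSO. Klf2, Klf3 and Klf4 were at 0.677, 0.711 and 0.669 of theirs. Klf6, the most abundant member, was at 527 ± 75.6 CPM with DMSO Ova and 555 ± 50.8 with DMSO IC (SD, n = 5), and with iBET at 323 ± 25.8 and 309 ± 17.6.

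By edgeR under DMSO, 0 members were called higher with IC and 5 lower (Klf2, Klf3, Klf4, Klf10 and Klf11), where 9.59% of all genes were called higher and 10.7% lower. Under iBET, 0 were called higher and 6 lower, the sixth being Klf13, against 5.19% and 6.63% of all genes. At an unadjusted p under 0.05 the counts were 0 higher and 6 lower under DMSO and 0 higher and 7 lower under iBET. Of all 12465 genes, 4123 under DMSO and 3312 under iBET had such a p, in either direction. DESeq2 called 0 members higher and 6 lower under each treatment. It called 1364 of all genes higher and 1482 lower under DMSO, and 847 and 943 under iBET. The median log2 fold change was -0.38 over the members and -0.024 over all genes under DMSO, and -0.41 and -0.014 under iBET. Groups did not overlap for 4 members under DMSO and for 5 under iBET, against 12.4% and 10.0% of all genes. With the replicate block the counts were 0 higher and 6 lower under DMSO, with Klf13 added (18.3% and 19.8% of all genes), and 0 higher and 7 lower under iBET, with Klf9 added (14.2% and 14.7% of all genes). Scaling by library size alone moved the median log2 fold change of all genes to -0.13 under DMSO and -0.12 under iBET. It called 582 genes higher and 2593 lower under DMSO and 313 and 2030 under iBET. The members called above kept their direction and their call under it. All of them were lower, the direction in which this scaling moved the median, so it could hardly have removed their calls. Both IC comparisons use the same mice with different libraries.

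Klf10 (chromosome 15 from 38291463 to 38300706, − strand) was at 118, 129, 85.9, 101 and 96.7 CPM in mice A to E with DMSO Ova and at 52.3, 55.0, 49.7, 44.9 and 46.4 CPM with DMSO IC. With iBET Ova it was at 118, 125, 73.0, 101 and 89.6 CPM and with iBET IC at 29.5, 26.7, 19.5, 19.9 and 20.8 CPM. Both pairs of groups were separate, and the highest iBET IC library was below the lowest library of each other group. Klf10 fell with IC under DMSO (log2 fold change -1.10, SE 0.145, adjusted p = 3.72e-05) and under iBET (log2 fold change -2.12, SE 0.151, adjusted p = 2.05e-08).

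Klf11 fell with IC under both treatments (log2 fold change -1.11, SE 0.0831, adjusted p = 2.85e-08 under DMSO, and log2 fold change -0.94, SE 0.0815, adjusted p = 3.35e-07 under iBET), and its Ova and IC libraries were separate in both. Klf3 fell by edgeR under DMSO (log2 fold change -0.49, SE 0.0912, adjusted p = 8.94e-04) and under iBET (log2 fold change -0.47, SE 0.0909, adjusted p = 0.00199), in 5 of 5 mice and with separate groups each time.

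Klf2 fell with IC under DMSO (log2 fold change -0.56, SE 0.150, adjusted p = 0.0119) and under iBET (log2 fold change -0.53, SE 0.147, adjusted p = 0.0237). Mouse E moved least under DMSO, from 23.8 to 23.1 CPM, and the DMSO groups overlapped. The call under DMSO was lost without mouse B, C or D (adjusted p = 0.0528, 0.0609 and 0.0603) or when the 2 groups were fitted alone (0.0597). That under iBET was lost without mouse A, C or D (0.0922, 0.0834 and 0.138). With the replicate block both stayed past the threshold (edgeR adjusted p = 0.00236 and 0.00368).

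Klf4 fell with IC under DMSO (log2 fold change -0.58, SE 0.126, adjusted p = 0.00305), with separate groups. Under iBET the groups overlapped at 74.2 and 74.5 CPM, and the fall (log2 fold change -0.43, SE 0.127, adjusted p = 0.0297) lost its call without mouse A, D or E (adjusted p = 0.0690, 0.132 and 0.0782). Klf13 fell with IC under iBET (log2 fold change -0.38, SE 0.0974, adjusted p = 0.0145), a call lost without mouse C or D (0.0644 and 0.105). It was lower there in 5 of 5 mice, with an edgeR adjusted p of 5.94e-04 with the replicate block. Under DMSO its log2 fold change was -0.27 with an adjusted p of 0.0559, or 0.00458 with the replicate block. Without the block, leaving out mouse D left 3 of the 6 calls under iBET.

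Klf6, Klf7, Klf9 and Klf16 had IC differences that missed the threshold. For Klf6 the log2 fold change was 0.076 under DMSO (95% interval -0.10 to 0.25) and -0.063 under iBET (-0.24 to 0.11), and the sign under DMSO was negative when libraries were scaled by size alone (-0.033). For Klf7 it was -0.14 (-0.46 to 0.19) and -0.38 (-0.74 to -0.026). The latter was lower in 5 of 5 mice, and its adjusted p was 0.185 in edgeR, 0.0561 with the replicate block and 0.0367 in DESeq2 with the block, which called it. Klf9 had -0.10 (-0.29 to 0.077) and -0.18 (-0.37 to -0.00045). In edgeR the latter had an unadjusted p of 0.0639 without the block and an adjusted p of 0.0403 with the replicate block. Klf16 had -0.15 (-0.46 to 0.15) under DMSO and 0.019 (-0.28 to 0.32) under iBET.

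**Figure D3:**
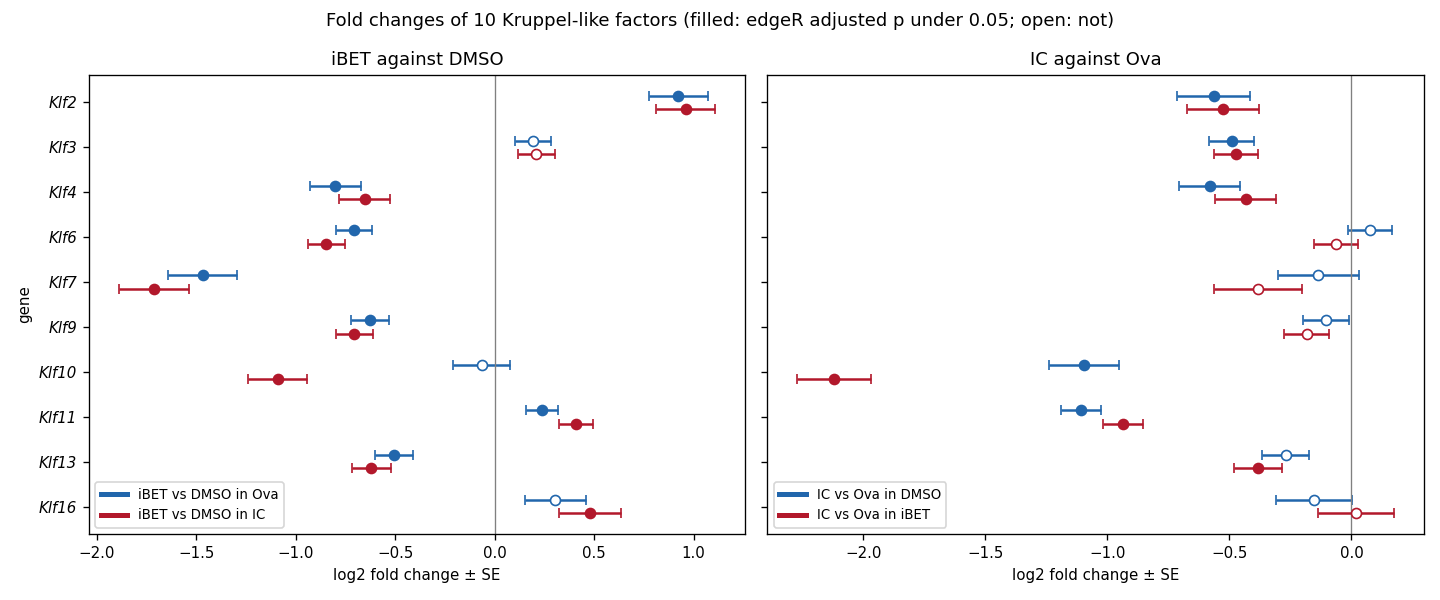
Log2 fold change of each member with its SE from the edgeR fit, for iBET against DMSO (left) and IC against Ova (right), with filled points for an adjusted p under 0.05. Klf2 and Klf4 lie on opposite sides of 0 on the left and on the same side on the right, and Klf10 has the widest gap between its paired estimates in each panel.

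Klf10 had the widest difference in iBET effect between the stimuli among the 10 members. With Ova, iBET left it at 101 ± 21.2 CPM against 106 ± 17.2 with DMSO (SD, n = 5), a log2 fold change of -0.065 (95% interval -0.34 to 0.22, adjusted p = 0.722). With IC, iBET lowered it from 49.7 ± 4.16 to 23.3 ± 4.53 CPM (log2 fold change -1.09, SE 0.148, adjusted p = 3.29e-06). Seen the other way, the IC libraries of mice A to E kept 44.2%, 42.8%, 57.9%, 44.4% and 48.0% of the Ova level under DMSO, and 24.9%, 21.4%, 26.7%, 19.6% and 23.2% under iBET. The share kept was lower under iBET in every mouse.

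The interaction, which is the iBET effect in IC minus that in Ova, was -1.02 for Klf10 on the log2 scale (SE 0.205), between -1.18 and -0.83 in the 5 mice. It missed the threshold in edgeR without the block (adjusted p = 0.126), where Klf10 had the 7th smallest p of the 12465 genes. With the replicate block it passed (-1.04, adjusted p = 8.73e-05, the 2nd smallest p), and the DESeq2 Wald test also called it (-1.02, adjusted p = 0.00328). Over the alternatives the adjusted p ran from 5.18e-16 to 0.858, the highest without mouse D. In edgeR without the block 0 members were called, and 0.0241% of all genes were called higher and 0.0160% lower. There, 1 member had an unadjusted p under 0.05, as did 543 of all 12465 genes. With the block 0 members were called higher and 1 lower, against 0.401% and 0.417% of all genes. The value was -0.89 in mice A and B alone (adjusted p = 0.189) and -1.15 in mice C, D and E alone (adjusted p = 0.0147). Both fits rest on fewer libraries per group than the full fit, so their p values do not compare the sets of mice.

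For the other 9 members the interaction lay between -0.25 (Klf7, 95% interval -0.73 to 0.23) and 0.17 (Klf16, -0.26 to 0.60), with an adjusted p of 1.00 in edgeR. Klf11, the closest relative of Klf10, had 0.17 (-0.055 to 0.40), of the opposite sign in 5 of 5 mice. Klf4 had 0.15 (-0.20 to 0.50), also positive in 5 of 5 mice.

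**Figure D4:**
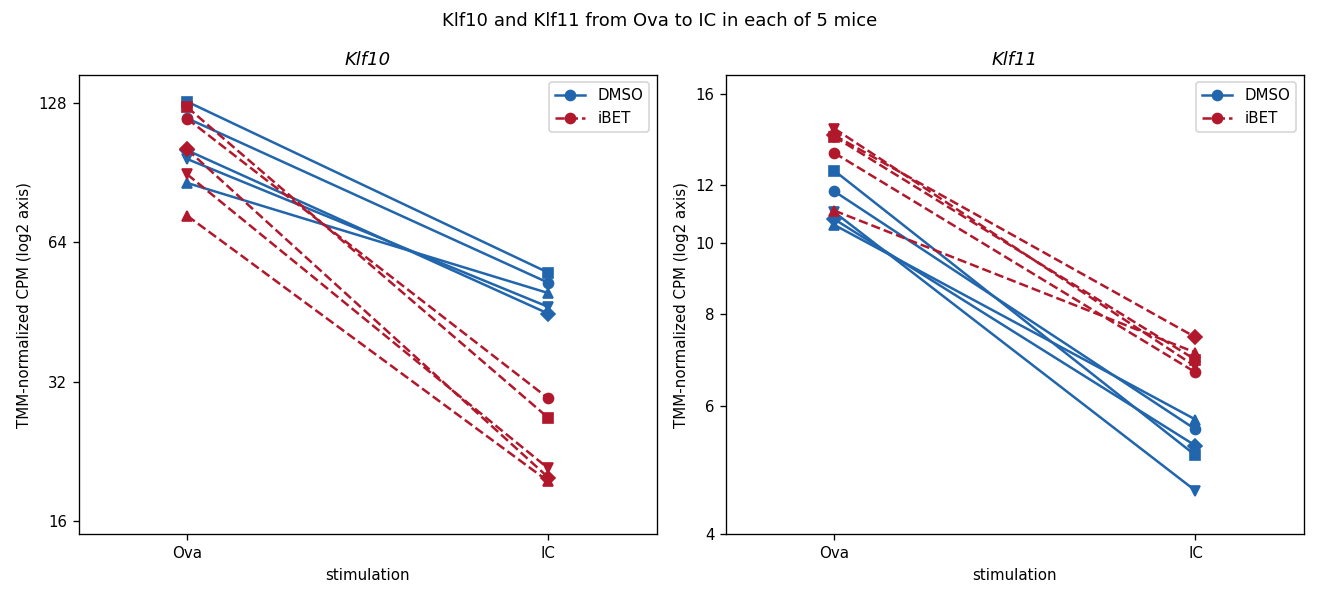
Klf10 and Klf11 in TMM-normalized CPM on a log2 axis, with a line from Ova to IC for each mouse (1 marker shape per mouse), solid for DMSO and dashed for iBET. The iBET lines of Klf10 start at 73.0 to 125 CPM, overlapping the DMSO lines, and end below all of them at 19.5 to 29.5 CPM, whereas those of Klf11 end above the DMSO lines.

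Count ratios within a library do not depend on the scaling. There were 0.246, 0.310, 0.243, 0.284 and 0.167 Klf2 reads per Klf4 read in mice A to E with DMSO Ova and 0.277, 0.246, 0.260, 0.271 and 0.223 with DMSO IC. With iBET the ratio was 0.709, 0.667, 0.942, 1.03 and 0.880 in the Ova libraries and 0.644, 0.725, 0.902, 0.838 and 0.858 in the IC libraries. Every iBET library was above every DMSO library, and Ova and IC overlapped within each treatment. The means were 0.250 ± 0.0540 (Ova) and 0.255 ± 0.0215 (IC) under DMSO and 0.845 ± 0.153 and 0.793 ± 0.106 under iBET (SD, n = 5).

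Klf10 reads per Klf11 read averaged 9.31 ± 0.888 in DMSO Ova and 9.48 ± 0.951 in DMSO IC, which overlapped. They averaged 7.58 ± 1.27 in iBET Ova, with 8.89, 8.95, 6.58, 7.22 and 6.24 in mice A to E, and 3.35 ± 0.759 in iBET IC, with 4.42, 3.86, 2.75, 2.67 and 3.07. The 5 iBET IC libraries were below the 15 others.

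**Figure D5:**
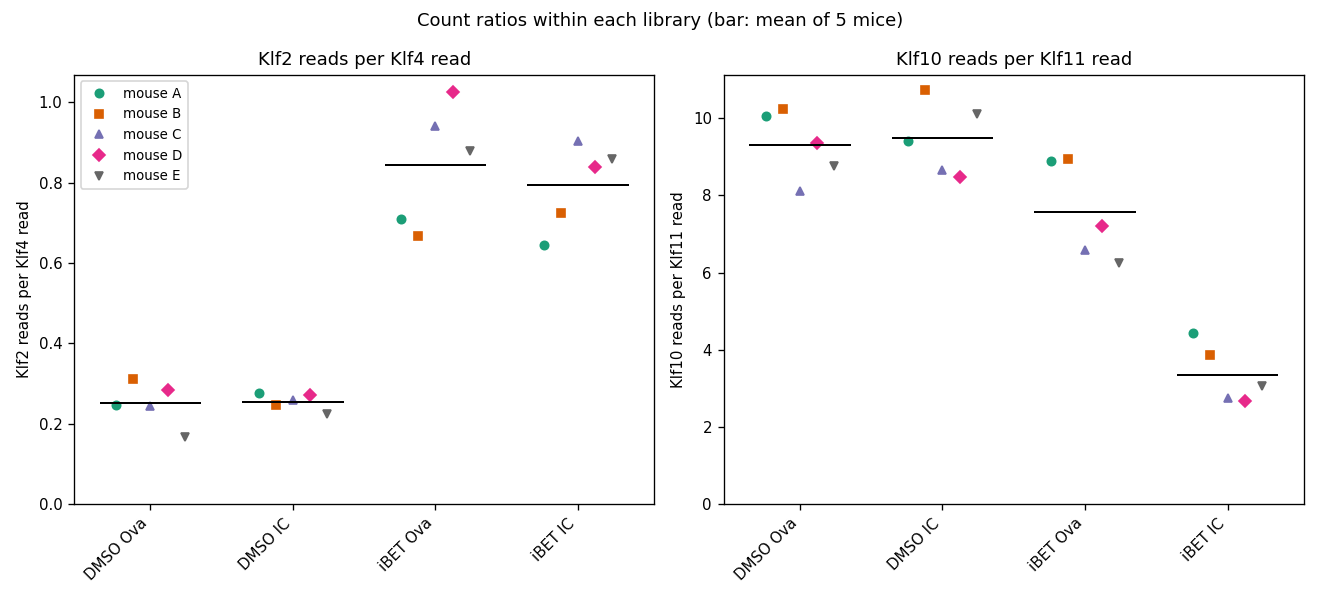
Klf2 reads per Klf4 read (left) and Klf10 reads per Klf11 read (right) in each library on linear axes from 0, with 1 symbol for each mouse and a bar at the mean of 5. The left ratio rises with iBET from means of 0.250 and 0.255 to 0.845 and 0.793, and the right ratio is lowest in iBET IC, at a mean of 3.35.

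Of the other 7 family symbols, Klf5 and Klf8 passed the filter. Klf5 had at most 1.71 CPM in any library and was higher with iBET in Ova (log2 fold change 0.83, SE 0.275, adjusted p = 0.0146) and IC (log2 fold change 1.02, SE 0.280, adjusted p = 0.00419). Klf8, a CtBP-binding relative of Klf3, was at 7.39 ± 1.94 CPM in DMSO Ova and 3.74 ± 1.06 in iBET Ova, and fell by edgeR with iBET in Ova (log2 fold change -0.99, SE 0.209, adjusted p = 4.75e-04) and IC (log2 fold change -0.75, SE 0.213, adjusted p = 0.00512). Klf1, Klf12, Klf14, Klf15 and Klf17 had 35, 19, 4, 7 and 3 reads over all 20 libraries. Of the Sp factors, which bind the same GC-rich letters, 4 of 9 were tested, and in both iBET comparisons Sp4 was higher (0.98 and 1.00) and Sp1 lower (-0.20 and -0.24 on the log2 scale). For IC, 0 of the 4 were called in edgeR without or with the block and 0 had an unadjusted p under 0.05. Of all 12465 genes, 4123 under DMSO and 3312 under iBET had such a p. Klf8 was called lower with IC under DMSO with the replicate block alone (adjusted p = 0.00172).

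The kinase cascade that ends in ERK5 (Mapk7) and MEF2 factors is known to switch on Klf2 and Klf4. List counts are descriptions and stand beside the shares of all genes called, which with iBET were 27.7% higher and 28.9% lower in Ova and 27.1% and 29.0% in IC, and with IC 9.59% and 10.7% under DMSO and 5.19% and 6.63% under iBET. With the replicate block these shares were 33.5% and 35.2%, 32.6% and 35.4%, 18.3% and 19.8%, and 14.2% and 14.7%. Counts of list genes at an unadjusted p under 0.05 with IC stand beside 4123 of all 12465 genes under DMSO and 3312 under iBET, in either direction. Of 11 genes on the list for this cascade, 10 were tested. The list also holds the deacetylase genes Hdac4, Hdac5 and Hdac7, so its counts and medians give no direction of the cascade. For iBET, the edgeR counts were 3 called higher and 4 lower in Ova and 3 and 4 in IC (4 and 4 with the replicate block). The median log2 fold change with iBET was -0.030 in Ova and 0.100 in IC. Map3k2 (0.51 in Ova and 0.46 in IC on the log2 scale) and Map3k3 (0.33 and 0.31), the upstream kinases, rose with Mef2c. Map2k5 (-0.57 and -0.57), Mapk7 (-0.55 and -0.53) and Mef2a (-0.65 and -0.58) fell with Hdac7. Hdac7, a class IIa histone deacetylase that represses MEF2 factors, was at 4.93 CPM in DMSO Ova and 1.64 in iBET Ova (log2 fold change -1.59, SE 0.293, adjusted p = 1.18e-04), and fell by 1.47 on the log2 scale in IC. Mef2c rose by 0.76 in Ova and 1.34 in IC and was lower with IC under DMSO (-1.05, SE 0.176, edgeR adjusted p = 3.59e-04). For IC, the edgeR counts were 0 called higher and 2 lower under DMSO, Hdac5 and Mef2c (0 and 5 with the replicate block). Under iBET they were 0 and 0 (0 and 4 with the replicate block). At an unadjusted p under 0.05, 4 were lower with IC under DMSO and 2 under iBET.

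Of 14 genes for corepressors and coactivators that Kruppel-like factors recruit, all were tested. For iBET, the counts were 5 called higher and 2 lower in Ova (6 and 3 with the replicate block) and 4 and 3 in IC. Sin3a (0.66 in Ova and 0.73 in IC) and Sin3b (0.32 and 0.33), which encode the scaffolds of the SIN3 corepressor, were higher under both stimuli. Ctbp2 (-0.49 and -0.62), which encodes a partner of KLF3, was lower under both. The list's median was 0.15 in Ova and 0.11 in IC, beside the -0.0029 and -0.0054 of all genes. For IC, the counts were 1 called higher and 3 lower under DMSO (2 and 3 with the replicate block) and 1 and 2 under iBET (1 and 3 with the replicate block). Of 8 ubiquitin ligases that target these proteins, all were tested. The iBET counts were 2 called higher and 3 lower in Ova (3 and 4 with the replicate block) and 2 and 4 in IC (3 and 4 with the replicate block). The IC counts were 1 called higher and 1 lower under DMSO (3 and 2 with the replicate block) and 0 and 0 under iBET (3 and 1 with the replicate block). At an unadjusted p under 0.05, 3 were higher and 2 lower with IC under iBET. Medians with iBET were -0.14 in Ova and -0.10 in IC. Fbxo32, a ligase known from muscle wasting, fell from 35.2 to 13.2 CPM with iBET in Ova and from 31.2 to 13.3 CPM in IC (log2 fold changes -1.41 and -1.24).

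Of 13 genes described as targets of KLF2 or KLF4 in other cells, 12 were tested. For iBET, edgeR counts were 2 called higher and 6 lower in Ova (3 and 7 with the replicate block) and 1 and 5 in IC (4 and 5 with the replicate block). The medians were -0.49 and -0.14. For IC, edgeR counts were 0 called higher and 0 lower under DMSO (3 and 3 with the replicate block) and 0 and 0 under iBET (3 and 0 with the replicate block). At an unadjusted p under 0.05, 1 was lower with IC under DMSO and 0 under iBET. S1pr1, a lymphocyte egress receptor that KLF2 is known to induce in T cells, fell with iBET from 5.56 to 1.11 CPM in Ova and from 4.58 to 1.05 CPM in IC (log2 fold changes -2.32 and -2.09). Arg1, the arginase that KLF4 is known to induce in macrophages, fell from 371 to 112 CPM in Ova and from 460.2 to 128 CPM in IC (-1.72 and -1.85). Cdkn1c, a cell cycle inhibitor, was under 1 CPM in mean in each group and rose (2.64 and 1.80).

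Of described targets of other members, all 9 were tested. For iBET, their counts were 2 called higher and 5 lower in Ova (2 and 6 with the replicate block) and 2 and 6 in IC (2 and 7 with the replicate block). For IC, their counts were 3 called higher and 0 lower under DMSO (4 and 0 with the replicate block) and 3 and 0 under iBET (5 and 0 with the replicate block). The medians with iBET were -0.52 and -0.46. Bcl6, a repressor of inflammatory genes, fell from 13.3 to 4.13 CPM with iBET in Ova and from 11.0 to 4.61 in IC (-1.69 and -1.28 on the log2 scale). The early genes of TGF-β signalling were 10, all tested. The iBET counts were 4 called higher and 4 lower in Ova and 4 and 3 in IC. The IC counts were 2 called higher and 1 lower under DMSO (3 and 2 with the replicate block) and 3 and 1 under iBET (4 and 2 with the replicate block). Their medians with iBET were -0.11 and 0.28. Id1, an inhibitor of helix-loop-helix factors, rose from 3.46 to 27.8 CPM in Ova (3.00) and from 2.22 to 16.7 in IC (2.92). Of glucocorticoid response genes, the pathway that induces Klf9, all 9 were tested. For iBET, the counts were 3 called higher and 1 lower in Ova (3 and 3 with the replicate block) and 3 and 1 in IC (3 and 2 with the replicate block). For IC, the counts were 1 called higher and 2 lower under DMSO (4 and 2 with the replicate block) and 1 and 1 under iBET (4 and 1 with the replicate block). Their medians with iBET were -0.0074 and 0.15. Mt1 and Mt2, which encode metallothioneins, rose (2.42 and 2.91 in Ova, 2.47 and 2.88 in IC), whereas Tsc22d3, which encodes the glucocorticoid-induced leucine zipper protein GILZ, fell (-1.12 and -1.03). Over the list genes named here for iBET, SEs of the log2 fold changes ran from 0.0479 to 0.526, and the highest edgeR adjusted p was 0.0433.

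Genes with the most similar pattern were sought for the 3 members with the widest range of group means on the log2 scale, which were Klf10 (2.19), Klf7 (1.81) and Klf2 (1.50). Likeness was the root mean square difference of centred log2 CPM over the 20 libraries, among 9781 genes. For Klf2 the nearest were Tmem175 (0.181) and Trpm4 (0.206), against 0.597 for a flat line. Tmem175 had means of 12.6, 8.88, 24.0 and 18.1 CPM in the groups, taken as Ova then IC under DMSO and the same under iBET. For Klf7 they were Zfp608 (0.190) and Tacc2 (0.208), against 0.830 for a flat line, and Zfp608 had means of 62.5, 49.6, 23.5 and 17.8 CPM. Klf10 had no close match, since its nearest genes, Sf3b3 (0.439) and Evi2b (0.443, flat line 0.917), differed from it by more than those of the other 2 members. In the same order of groups, Sf3b3 had means of 119, 53.6, 110.4 and 47.2 CPM.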

How the data were processed

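RNA from 20 BMDC libraries (4 groups of 5 mice) was measured as counts per gene. Per the labels and the methods, the authors trimmed reads with Trim Galore, checked them with FastQC, aligned them to mm10 with HISAT2 and counted them per gene with featureCounts. For differential expression the methods name DESeq2, with sva to remove batch effects, and do not say what the batches were. Versions, gene annotation and the strand setting are not given in the sources used here. The authors deposited raw counts and a second table whose values are a normalized signal, each count divided by the DESeq2 size factor of its library, as recomputed to a relative difference of 2.22e-16.

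Counts were tested in R 4.3.3 with edgeR 4.0.16 (quasi-likelihood test, 1 mean per group, TMM scaling, filterByExpr, Benjamini-Hochberg over 12465 genes, threshold 0.05). SEs were taken from the log2 fold change and its F statistic, and 95% intervals are normal and unadjusted. These intervals are narrower than the F test would give, so some leave out 0 at an unadjusted p above 0.05. Alternatives, 16 in all for single genes, included DESeq2 1.42.0, surrogate variables (sva 3.50.0, 3 of them), the deposited normalized values in limma 3.58.1 on log2(value + 1), other scalings, no filter, left-out mice and the mouse as replicate block. The mouse letters mark the same animal, and libraries of a mouse deviated together. The correlation of their deviations from group means was at least 0.307 and on average 0.524 over 30 pairs. The mean of -0.127 between mice follows from the centring on group means and is no separate comparison.

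Members and gene lists were chosen with earlier results of these data known. All 10 members were named in every comparison. List genes were named where called in both iBET comparisons with a fold change of 1 or more on the log2 scale in size, and a few others (Map3k2, Map3k3, Map2k5, Mapk7, Mef2a, Mef2c, Sin3a, Sin3b, Ctbp2, Sp1 and Sp4) after their values were seen; 1 list gene that met the rule is not reported here. Likeness was sought among tested genes with a mean of at least 100 counts. Positions come from GENCODE on GRCm38. Each mouse gave 1 library per group. Without the replicate block, p values rest on the spread of libraries within groups, shared over the 4 groups, and leave the pairing by mouse unused. With the block, shifts common to the libraries of a mouse are taken out first.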

Additional observations from a re-analysis of the deposited data

Results flagged for a closer look

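Within groups of 5 libraries, a value was picked out when its gap to the nearest of the others exceeded 0.71 of the group's range, which chance gives in about 1 of 20 groups, and 40 groups were examined. Klf3 with iBET IC was high in mouse B, at 34.0 CPM against 28.9 to 29.9 CPM in the others. Klf4 with DMSO IC was low in mouse C, at 69.9 CPM against 101 to 109 CPM. Klf9 with DMSO Ova was high in mouse D, at 68.9 CPM against 57.7 to 60.3 CPM. Klf10 was picked out because its response to iBET differed between Ova and IC in the edgeR test with the replicate block, with an interaction of -1.04 on the log2 scale and the same sign in 5 of 5 mice.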

How the results depend on the processing

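Of the single-member results, 719 of 790 values under the alternatives kept direction and side of the threshold, 22 lost and 33 gained the call, and 16 changed sign, none of them called. The sign changes for IC under DMSO were Klf6 with library size scaling (-0.033) and Klf7 with surrogate variables (0.027), in mice A and B only (0.26) and without mouse C (0.017, with -0.24 to 0.017 over the left-out mice). For IC under iBET they were Klf16 with library size scaling (-0.087) and without mouse B (-0.0086) or E (-0.042 to 0.057 over the left-out mice, the lowest without E). For the interaction they were Klf2 with surrogate variables (-0.11), in mice C, D and E (-0.094) and without mouse B (-0.13 to 0.11 over the left-out mice), Klf3 with surrogate variables (-0.037), in mice C, D and E (-0.087) and without mouse B or C (-0.053 and -0.0036, up to 0.090 without E), Klf7 in mice C, D and E (0.21) and Klf9 in mice A and B (0.16).

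Asking also for a log2 fold change of 1 or more in size left 1 and 2 members called for iBET in Ova and IC and 2 and 1 for IC under DMSO and iBET, and 1865, 1867, 184 and 101 of all genes (7057, 6990, 2531 and 1474 without it), with 3 for the interaction. For IC under iBET, 2 members were called in mice A and B only, 3 at an adjusted p under 0.01, and 3 to 6 with a mouse left out, 3 being without mouse D. For the interaction, 1 member (Klf10) was called instead of 0 with the replicate block, with DESeq2 without and with the block, with surrogate variables and in mice C, D and E.

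With the mouse as replicate block, 4755 genes were called for IC under DMSO, 3601 under iBET and 102 for the interaction (5 without it), and the member calls it changed stand beside their results. DESeq2 with the block called 4611, 3600 and 185, DESeq2 alone 24 for the interaction, and surrogate variables 4062, 3102 and 47. Library size scaling called 582 genes higher and 2593 lower for IC under DMSO (1196 and 1335 with TMM), and 2343 under iBET, 313 higher and 2030 lower (647 and 827 with TMM). Mice A and B gave 500, 296 and 0, mice C, D and E 13 for the interaction, and an adjusted p under 0.01 gave 1200, 619 and 0. Leaving out a mouse gave 1180 (without C) to 2477 for IC under DMSO, 643 (without C) to 1177 under iBET and 0 to 2 for the interaction. Depth limits the genes with few reads, of which a library held as few as 9 for Klf5, 46 for Klf8, 73 for Klf7 and 105 for Klf11.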
